A study of Mus musculus with 24 samples.

Results

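The genes examined here are the 6 metabotropic glutamate receptor genes Grm5, Grm2, Grm3, Grm4, Grm7 and Grm8, chosen by name as a gene family from the 18647 genes of the count table, and all 6 were among the 18153 genes that passed the filter on low counts. They were measured by bulk RNA sequencing in microdissected CA1, the output subfield of the hippocampus, of adult C57Bl/6N mice. Mice of the SE groups had developed status epilepticus (SE), a sustained seizure, after 335 mg/kg pilocarpine, a muscarinic agonist, and were sampled 6, 12, 24, 36 or 72 h later. Controls (Ctr) of 12, 36 and 72 h received saline in its place, and all groups shared a scopolamine methyl nitrate pretreatment and a diazepam injection. Each of the 5 SE groups and 3 control groups held 3 libraries, 24 in all. SE 6 h and SE 24 h have no controls of their own time and were set against the mean of the 3 control groups, so their comparisons share the same 9 control libraries. The question was how the messages of this receptor family changed in the first days after SE.

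Metabotropic glutamate receptors are G protein-coupled receptors that modulate synapses on a slower time scale than the glutamate-gated ion channels. Group I, to which Grm5 belongs, sits mainly around postsynaptic densities, is tied to Homer scaffolds, and acts through Gq, phospholipase C and inositol trisphosphate receptors. Group II (Grm2 and Grm3) and group III (Grm4, Grm7 and Grm8) act through Gi/o, lower adenylyl cyclase activity and damp transmitter release. Grm3 is also a main metabotropic receptor of astrocytes and is activated by the dipeptide NAAG. Grm7 lies in the active zone of boutons that contact certain interneurons.

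The 24 libraries held between 2663936 and 30133731 counts, 13521590 at the median, and the members' lowest count in any library was 37, for Grm8. Summed CPM of 5 CA1 pyramidal cell markers ranged from 302 to 1429, against 5.80 to 235 for 5 dentate granule cell markers. Ctr 72 h replicate 2 stood apart, with 1671 CPM over 8 sensory ganglion markers against 4.68 to 71.2 in the other controls, and the same sum was between 316 and 888 in SE 6 h replicate 3, SE 12 h replicate 1, SE 36 h replicate 3 and SE 72 h replicates 1 and 2. SE 72 h replicate 1 held both the lowest CA1 sum and the highest dentate sum. Values below are CPM, read counts scaled to one common library total, after TMM scaling, which adjusts the totals for differences in make-up. A gene was called at an adjusted p of at most 0.05 in edgeR's quasi-likelihood test together with a log2 fold change (log2FC) of 0.66 or more in size, raised to 1 or more for steps between consecutive SE times. The ± after a log2FC is its standard error in that fit, and the ± after a level is the SD over 3 libraries. The labels do not say that replicates are separate animals, so p-values measure the spread between these libraries.

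The largest share of the family's transcripts came from Grm5, the most abundant member per length. Per kilobase of exon, Grm5 stood at 28.6 ± 4.52 CPM over the 9 control libraries. Grm7 followed with 8.98 ± 1.43, Grm2 with 6.13 ± 3.27, Grm3 with 5.76 ± 1.19, Grm4 with 2.60 ± 0.95 and Grm8 with 1.26 ± 0.54 CPM per kb. Over the 15 SE libraries the Grm5 level was 14.8 ± 3.10 CPM per kb, and it remained the highest of the 6 means, followed by Grm7 with 8.21 ± 2.01 and Grm2 with 7.31 ± 4.26.

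**Figure D1:**
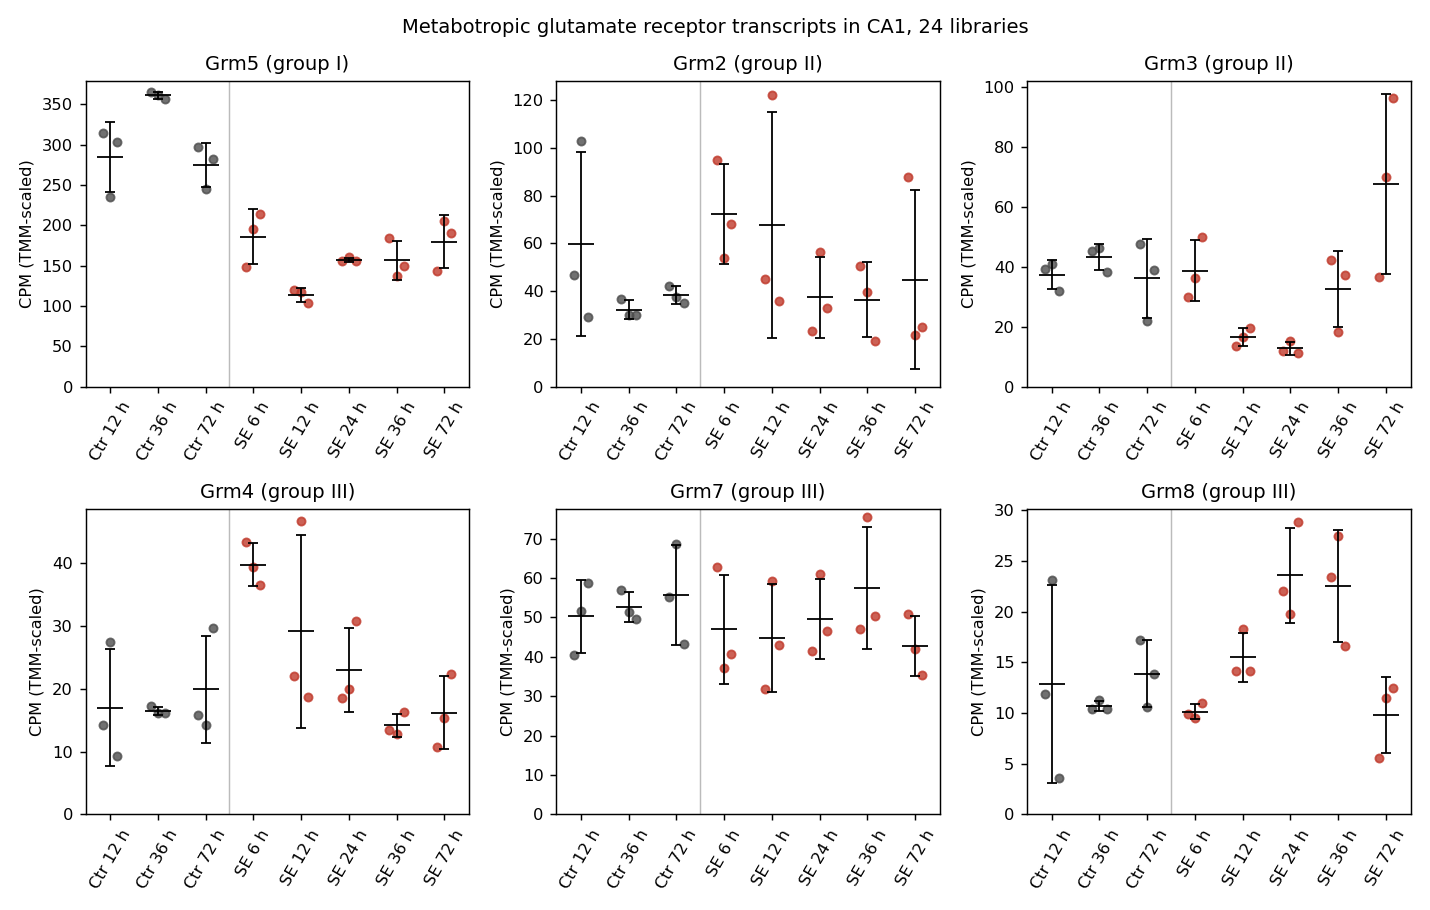
CPM of each member in the 24 libraries (points, grey for Ctr and red for SE), with the mean and SD of each group of 3 in black; every y axis starts at 0. All 15 SE libraries of Grm5 lie below its 9 control libraries, Grm3 is lowest at SE 12 h and SE 24 h and highest at SE 72 h, and Grm4 is highest at SE 6 h.

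Grm5, the group I receptor, was lower after SE at every time point. Its gene lies on chromosome 7 (GRCm39, 87233376 to 87784594, plus strand) and its exons overlap no other annotated gene. Control libraries held 315, 235 and 304 CPM at 12 h, 366, 361 and 357 CPM at 36 h, and 297, 245 and 282 CPM at 72 h. SE libraries held 148.5, 195 and 214 CPM at 6 h, then 119.5, 117 and 104 CPM at 12 h. SE 24 h libraries held 156, 160 and 155 CPM, those of SE 36 h 184, 137 and 150.0 CPM, and those of SE 72 h 143.5, 206 and 190.3 CPM. The highest SE library thus lay under the lowest control, and SE 12 h was the lowest group. Of all genes tested, 1.7% had all 15 SE libraries below all 9 controls. For the separations of single groups given below, for any member, the share of all genes was not counted.

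Against controls of the same time, Grm5 fell to 39.9% at 12 h (log2FC -1.32 ± 0.15, edgeR adjusted p = 1.61e-06) and to 43.4% at 36 h (-1.21 ± 0.15, adjusted p = 3.79e-06). At 72 h its level was 65.5% of control, with a log2FC of -0.61 ± 0.15 and an edgeR adjusted p of 0.00408, which is under the fold threshold. Leaving out Ctr 72 h replicate 2 or SE 72 h replicate 2 took that log2FC past the threshold, at -0.69 and -0.72. Over all 6 omissions it ran from -0.72 to -0.47 (edgeR adjusted p up to 0.0327). Over 12 other fits it ran from -0.69 to -0.47, and 11 of them did not call it (edgeR, DESeq2 or limma-voom adjusted p up to 0.15). Against the mean of the controls, Grm5 fell at 6 h (-0.71 ± 0.12, edgeR adjusted p = 0.000166) and at 24 h (-0.95 ± 0.13, adjusted p = 5.69e-06). Without SE 6 h replicate 1 the change at 6 h was -0.57, which is under the threshold.

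The fall of Grm5 was smaller at 72 h than at 12 h. The difference of the 2 log2FC was 0.71 ± 0.21 (edgeR adjusted p = 0.019), and it was no longer called without Ctr 12 h replicate 1, SE 12 h replicate 3, Ctr 72 h replicate 2 or SE 72 h replicate 2 (0.61 to 0.86 and an adjusted p of up to 0.056 over 12 omissions). The drop from SE 6 h to SE 12 h, -0.71 ± 0.15 with an edgeR adjusted p of 0.0114, was under the fold threshold for consecutive time points although the libraries did not overlap. Among controls, Ctr 36 h was highest, with a mean of 361 ± 4.30 CPM against 284 ± 43.3 at 12 h and 275 ± 26.8 at 72 h. Its libraries did not overlap those of either other group, with log2FC of 0.34 ± 0.15 over Ctr 12 h (edgeR adjusted p = 1) and -0.40 ± 0.15 for Ctr 72 h against it (adjusted p = 0.129).

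The summed CA1 pyramidal markers moved in part with Grm5. They ranged from 733 to 1118 CPM at Ctr 12 h, 1344 to 1429 at Ctr 36 h and 778 to 1010 at Ctr 72 h, and from 302 to 874 in the SE libraries. Of the 5 markers 1, 3 and 2 fell at 12, 36 and 72 h and none rose, with a median log2FC of -0.60 at 12 h and -1.12 at 36 h, beside -1.32 and -1.21 for Grm5. Over the 24 libraries, which share this marker list and the scaling, the Pearson r between log2 CPM of Grm5 and the mean log2 CPM of the list was 0.82, and 0.66 after the group means were removed. For a list of 6 general neuron markers the same values were 0.47 and -0.02. In bulk tissue, fewer cells of a type and less RNA per cell cannot be told apart.

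**Figure D2:**
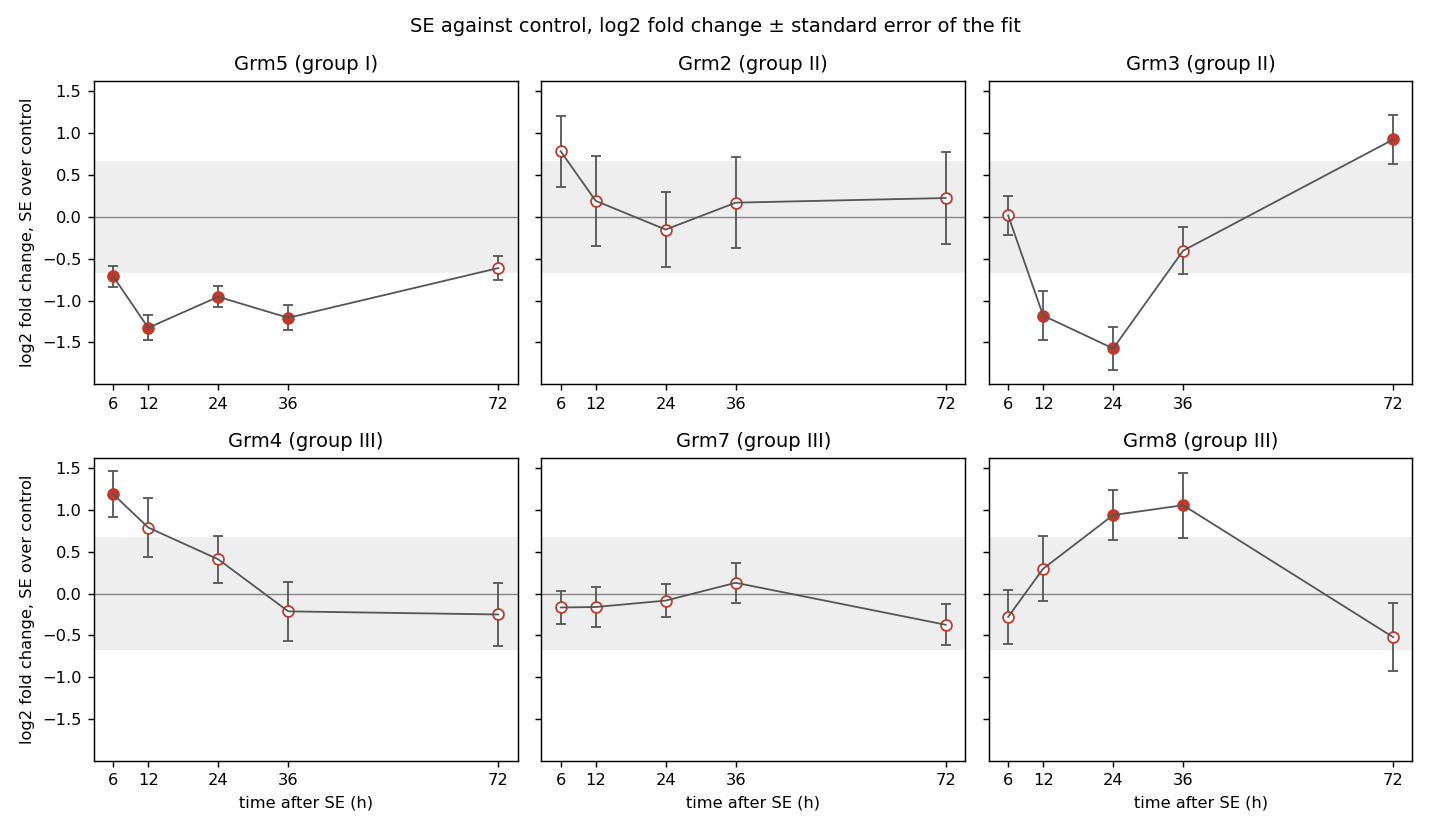
Log2FC of SE over control at each of the 5 times for each member, with the standard error of the fit as bars; filled points were called, and the grey band marks an absolute log2FC under 0.66. Grm5 is below 0 at each time, Grm3 runs from -1.57 at 24 h to 0.92 at 72 h, and Grm2 and Grm7 have no filled point.

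Grm3, the group II receptor shared by neurons and astrocytes, changed in both directions over time. Its gene is on chromosome 5 (GRCm39, 9534069 to 9776088, minus strand), without exonic overlap. Controls held 39.4, 40.8 and 31.8 CPM at 12 h, 45.3, 46.4 and 38.3 CPM at 36 h, and 47.7, 21.8 and 38.99 CPM at 72 h. The lowest of these 9 values is that of Ctr 72 h replicate 2, the library that stood apart. SE libraries held 29.8, 36.3 and 49.7 CPM at 6 h, 13.6, 16.7 and 19.5 CPM at 12 h, and 11.9, 15.2 and 11.2 CPM at 24 h. They then held 42.3, 18.1 and 37.1 CPM at 36 h and 36.5, 69.9 and 96.3 CPM at 72 h. All libraries of SE 12 h and SE 24 h were below every control library, whereas those of SE 6 h and SE 36 h overlapped the controls, and 2 of 3 at SE 72 h lay above every control.

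Grm3 at 6 h was near control, with a log2FC of 0.02 ± 0.23. It fell to 44.2% of control at 12 h (-1.18 ± 0.29, edgeR adjusted p = 0.00329) and to 33.7% of the control mean at 24 h (-1.57 ± 0.26, adjusted p = 7.69e-05). At 36 h the log2FC of -0.40 ± 0.28 did not pass (edgeR adjusted p = 0.305). At 72 h it rose to 190% (0.92 ± 0.29, edgeR adjusted p = 0.0232), although the libraries overlapped. That call was lost without Ctr 72 h replicate 2 (0.60, edgeR adjusted p = 0.208), without SE 72 h replicate 2 (0.89) or replicate 3 (0.59, adjusted p = 0.166), and in 5 of 12 other fits.

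The SE effect on Grm3 was 2.10 ± 0.41 higher on the log2 scale at 72 h than at 12 h (edgeR adjusted p = 0.00156), and this difference was called in all 12 other fits and without any one of the 12 libraries. Relative to 36 h it was 1.33 ± 0.41 higher, which did not pass (edgeR adjusted p = 0.061). Between consecutive SE time points Grm3 fell from 6 to 12 h (-1.24 ± 0.29, edgeR adjusted p = 0.0201) and rose from 24 to 36 h (1.34 ± 0.30, adjusted p = 0.0394) and from 36 to 72 h (1.02 ± 0.29, adjusted p = 0.0269). Each of these 3 steps lost its call on leaving out 1 library: SE 6 h replicate 3 or SE 12 h replicates 1 or 2 for the first (-1.39 to -1.01 over its omissions), replicates 1 or 3 of SE 24 h or SE 36 h for the second (1.13 to 1.62), and SE 36 h replicate 2 or SE 72 h replicates 2 or 3 for the third (0.69 to 1.34).

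At SE 24 h, when Grm3 was lowest, the sums of astrocyte and oligodendrocyte precursor markers lay below those of all controls, and those of microglial markers did not. The summed CPM of 7 astrocyte markers was 4510 to 5770 in the 9 controls, 5262 to 5650 in SE 6 h and 3917 to 5500 in SE 12 h. It was then 2791 to 3056 in SE 24 h, 2561 to 3166 in SE 36 h and 5327 to 5694 in SE 72 h. Of these 7 markers 2 fell and 1 rose at 12 h, while 4 fell and 1 rose at 24 h. At 36 h 5 fell and 2 rose, and at 72 h 2 rose and none fell. The mean log2 CPM of the astrocyte list read differently from its sum. It was 9.11 to 9.16 in SE 72 h, above all controls (8.29 to 8.63). In SE 36 h it was 8.35 in replicate 1, within the controls' range, and 7.95 and 8.07 in replicates 2 and 3, below it. The 4 oligodendrocyte precursor markers summed to 222 to 329 CPM in controls, 173 to 185 at SE 24 h, 268.5 to 378 at SE 36 h and 425 to 573 at SE 72 h. Microglial markers, 6 in all, were lowest at SE 6 h (167 to 183 CPM), when Grm3 was near control, stood at 307 to 433 CPM at SE 24 h, when Grm3 was lowest, and were highest at SE 72 h (844 to 1258 CPM, against 262 to 356 in controls). At 36 h the order of Grm3 and of the astrocyte list differed: 2 of the 3 Grm3 values were back within the controls' range while all 3 astrocyte sums were below it, and the precursor sums were within or above their controls' range. Over the 24 libraries, which share the scaling, Pearson's r of log2 CPM of Grm3 was 0.82 with the precursor score, 0.75 with the astrocyte score and 0.50 with the microglial score, and 0.41, 0.57 and 0.57 after the group means were removed. With the interneuron, cortex layer and CA1 pyramidal scores r was -0.29, 0.21 and 0.32. After the group means were removed these became 0.73, 0.60 and 0.58, so the glial lists were not the closest within groups. The part of any of these cells in the Grm3 result was not tested.

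**Figure D3:**
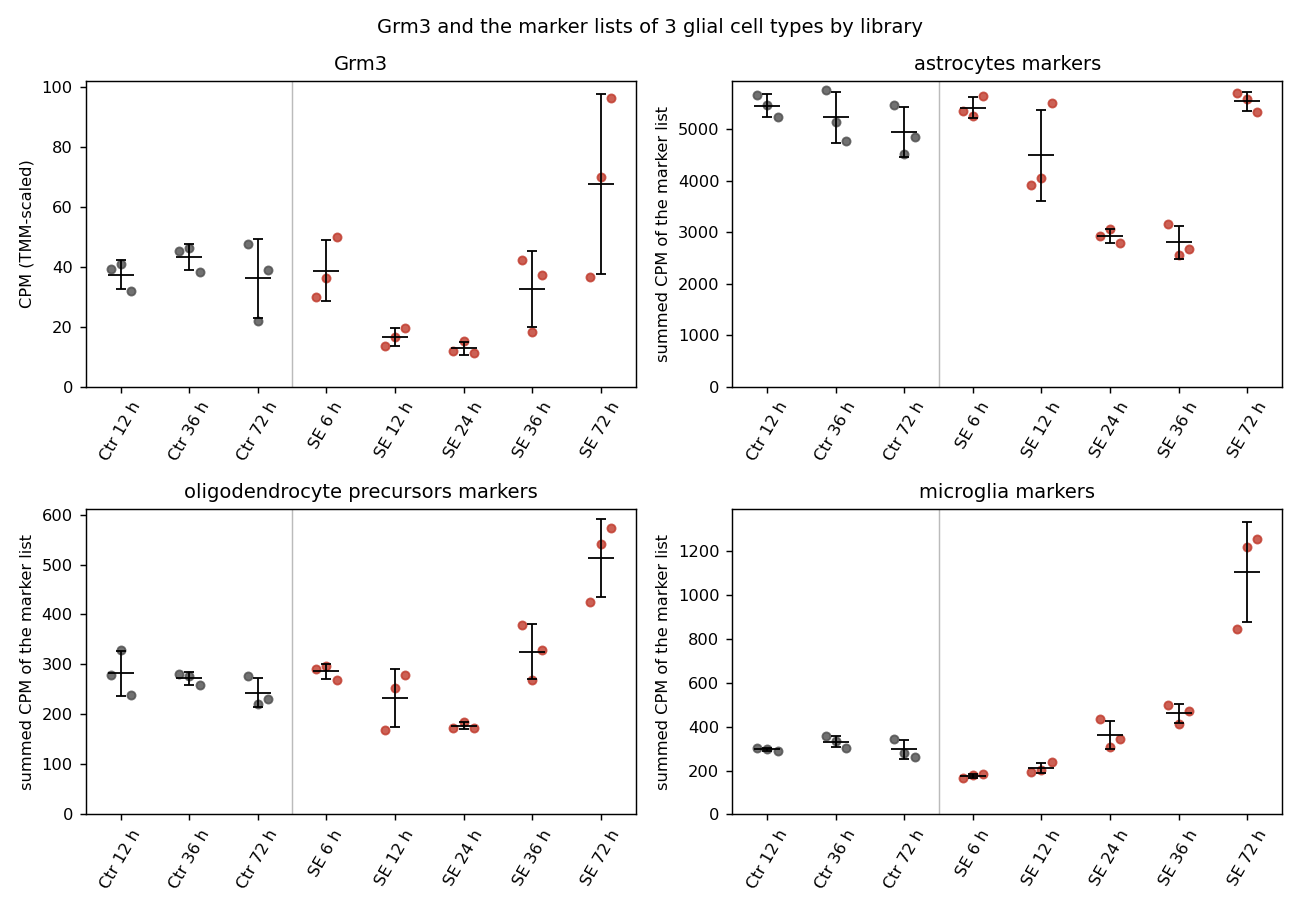
CPM of Grm3 and summed CPM of the astrocyte, oligodendrocyte precursor and microglia marker lists in the 24 libraries, with the mean and SD of each group of 3. Astrocyte sums are at 2561 to 3166 CPM at SE 24 h and SE 36 h against 4510 to 5770 in controls, and precursor and microglial sums are highest at SE 72 h. By mean log2 CPM, which is not drawn, the astrocyte markers are also highest at SE 72 h.

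Grm2, the other group II receptor and a presynaptic autoreceptor, was not called in any of the 15 comparisons. Its gene is on chromosome 9 (GRCm39, 106520294 to 106533870, minus strand). Control libraries ranged from 29.2 to 103 CPM with a median of 36.8, and SE libraries from 19.3 to 122 CPM with a median of 45.0. The spread within groups was wide. SE 6 h held 95.1, 53.9 and 68.0 CPM and had a log2FC of 0.78 ± 0.42 (edgeR adjusted p = 0.149), while the log2FC at the other 4 times was between -0.15 and 0.23. That value was called without Ctr 12 h replicate 2 (1.03, edgeR adjusted p = 0.049) and in a fit of the groups compared alone (0.79).

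In 3 groups a single library lay far above the others. Ctr 12 h replicate 2 held 103 CPM of Grm2 against 46.8 and 29.2 in the other two, and also the highest sum of 4 cortex layer markers among controls, 350 CPM. SE 12 h replicate 2 held 122 CPM against 45.0 and 35.9, with a cortex layer sum of 302 CPM. SE 72 h replicate 1 held 88.0 CPM against 21.8 and 24.9, and is the library with the highest dentate granule sum (235 CPM) and the lowest CA1 sum (302 CPM). These libraries did not share a pattern in the cortex layer and dentate sums. The cortex layer sum of SE 72 h replicate 1 was the lowest of all 24, at 116 CPM. The dentate sums of Ctr 12 h replicate 2 and SE 12 h replicate 2 were the lowest of their groups, at 34.6 and 17.8 CPM. All 3 held the lowest mean log2 CPM of the CA1 list in their groups (6.51, 5.90 and 5.38). By summed CPM, Ctr 12 h replicate 2 (1118) and SE 12 h replicate 2 (744.5) were instead the highest of theirs. Pearson's r of log2 CPM of Grm2 with the CA1 score was -0.50 over the 24 libraries, and -0.70 after the group means were removed. Of the 5 dentate markers 3 rose at 72 h. The part of neighbouring tissue in the Grm2 values was not tested.

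Group III differed among its members, with an early rise of Grm4, a later rise of Grm8 and no call for Grm7. Grm4 is on chromosome 17 (GRCm39, 27641361 to 27740377, minus strand). Control libraries held 9.36 to 29.6 CPM with a median of 16.1. SE 6 h libraries held 43.3, 39.3 and 36.5 CPM, all above every control. SE 12 h held 21.97, 46.7 and 18.6 CPM and SE 24 h 18.5, 19.9 and 30.7 CPM, both overlapping the controls. By SE 36 h the values were 13.4, 12.8 and 16.2 CPM, and by SE 72 h 10.8, 15.4 and 22.3 CPM.

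Grm4 rose to 228% of the control mean at 6 h (log2FC 1.19 ± 0.27, edgeR adjusted p = 0.00179), a call kept in all 12 other fits (0.82 to 1.32) and without any one of 12 libraries. At 12 h the log2FC of 0.79 ± 0.35 did not pass (edgeR adjusted p = 0.0827), but without Ctr 12 h replicate 2 it was 1.36 and called (edgeR adjusted p = 0.00693), as it was without SE 12 h replicate 3 (1.01) and with limma-voom (0.96, adjusted p = 0.0308). At 24, 36 and 72 h the log2FC was 0.41, -0.21 and -0.25, none of them called. The cortex layer markers were also high at SE 6 h, at 326 to 450 CPM against 155 to 350 in controls, where 1 of the 4 rose and none fell. Interneuron markers, 7 in all, summed to 989 to 1476 CPM at SE 6 h against 575.5 to 902 in controls, where 2 of the 7 rose and none fell. The 4 thalamus markers summed to 57.1 to 72.6 CPM at SE 6 h (2 rose), against 29.7 to 40.6 in 8 controls and 86.6 in Ctr 72 h replicate 2. Rgs16, which is in this list, had a mean of 23.2 ± 4.19 CPM at SE 6 h against means of 5.37 to 6.33 CPM in the control groups. The 5 oligodendrocyte markers summed to 5156 to 5403 CPM at SE 6 h (2 rose), against 2298 to 4118 in controls. Over the 24 libraries Pearson's r of log2 CPM of Grm4 with the cortex layer score was 0.73, and 0.78 after the group means were removed. With the interneuron, thalamus and oligodendrocyte scores r was 0.60, 0.49 and 0.25, and the part of other cells or tissue in the Grm4 result was not tested.

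Grm8, on chromosome 6 (GRCm39, 27275118 to 28135177, minus strand), is the least abundant member. Controls held 11.8, 23.2 and 3.63 CPM at 12 h, 10.4, 11.3 and 10.4 CPM at 36 h, and 17.2, 10.6 and 13.9 CPM at 72 h. SE 6 h had a mean of 10.1 ± 0.77 CPM, with 9.50 CPM as its lowest value, and later SE libraries held 14.1, 18.3 and 14.1 CPM at 12 h and 22.1, 19.8 and 28.9 CPM at 24 h. They then held 23.4, 27.5 and 16.6 CPM at 36 h and 5.56, 11.4 and 12.5 CPM at 72 h. SE 24 h and SE 36 h were the highest groups. SE 36 h lay above its 3 controls, SE 24 h overlapped the 9 controls through the value of 23.2 CPM, and SE 12 h and SE 72 h overlapped their own controls.

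Grm8 rose to 191.5% of the control mean at 24 h (log2FC 0.94 ± 0.30, edgeR adjusted p = 0.0178) and to 208% of control at 36 h (1.05 ± 0.39, adjusted p = 0.0446). The call at 24 h was lost without SE 24 h replicate 3 (0.76, edgeR adjusted p = 0.116), with a factor for the ranges of the label numbers (0.69, adjusted p = 0.203) and in a fit of the groups compared alone. The call at 36 h was lost on leaving out any control of that time or SE 36 h replicates 1 or 2 (0.89 to 1.25, edgeR adjusted p up to 0.142). It was kept in 9 of 12 other fits, and lost with limma-voom and without the factor of unwanted variation, whether or not Ctr 72 h replicate 2 was kept. At 12 h the log2FC was 0.30 ± 0.39, and it was called without Ctr 12 h replicate 2 (edgeR adjusted p = 0.024). At 72 h it was -0.52 ± 0.41 (edgeR adjusted p = 0.369), and with the factor for the label numbers it was -1.64 and called (adjusted p = 0.0466). That factor is largely confounded with SE at 72 h, since its highest range holds all of Ctr 72 h and none of SE 72 h. The step from SE 36 h to SE 72 h, -1.20 ± 0.39, had an edgeR adjusted p of 0.0563 and libraries that did not overlap, and it was called by DESeq2 (adjusted p = 0.022) and limma-voom (adjusted p = 0.0483). Pearson's r of log2 CPM of Grm8 with the cortex layer score was -0.03 over the 24 libraries, and 0.77 after the group means were removed. The part of other tissue in the Grm8 values was not tested.

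Grm7 varied least between groups. Its gene spans chromosome 6 from 110622542 to 111544191 (GRCm39, plus strand). Control libraries ranged from 40.3 to 68.6 CPM with a median of 51.6, and SE libraries from 31.9 to 75.4 CPM with a median of 46.5. The group means lay between 42.7 CPM at SE 72 h and 57.5 CPM at SE 36 h, and no pair of neighbours in that order differed beyond its SD. Its log2FC against control was between -0.37 ± 0.25 at 72 h and 0.13 ± 0.24 at 36 h, with edgeR adjusted p of at least 0.279. Counting ignored strand, and 10.2% of its exonic bases are shared with Gm20387, a non-coding gene on the opposite strand that the table also lists.

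Read against all genes, the numbers of members called were 2 of 6 at 12 h (25.2% of all genes tested were called), 2 at 36 h (21.6%) and 1 at 72 h (19.4%). They were 2 at 6 h (22%) and 3 at 24 h (24.1%). Between consecutive SE times 1 member was called from 6 to 12 h (1.34% of genes), 0 from 12 to 24 h (3.18%), 1 from 24 to 36 h (0.529%) and 1 from 36 to 72 h (4.13%), and each of these was Grm3. From 12 to 24 h, 1 member, Grm5, had an unadjusted p under 0.05 in edgeR, and DESeq2 and limma-voom called 0. For the difference of SE effects, 0 members were called between 36 and 12 h (3.38%), 2 between 72 and 12 h (18.6%) and 0 between 72 and 36 h (4.81%). At an unadjusted p under 0.05 edgeR gave 0 members for 36 against 12 h and 3 for 72 against 36 h, DESeq2 called 0 and 1, and limma-voom called 0 in both. The median log2FC of all genes was 0.15 in the difference between 72 and 12 h and 0.13 in that between 72 and 36 h.

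No member differed between control groups by this rule. Of all genes tested, edgeR called 0% for Ctr 36 h over Ctr 12 h. In that pair an unadjusted p under 0.05 was found for 648 genes, and DESeq2 called 3 genes and limma-voom 0. It called 0.931% for Ctr 72 h over Ctr 12 h and 1.97% for Ctr 72 h over Ctr 36 h. Grm5 was the 1 member at an unadjusted p under 0.05 in the first and in the last of these pairs, no member was in the other, and DESeq2 and limma-voom called 0 members in each pair.

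Grm5 fell while the other members did not all follow, and the make-up of the family's transcripts differed between the groups. Per kilobase of exon, the 6 members summed to 52.8 ± 4.44, 57.1 ± 2.10 and 50.1 ± 3.99 CPM per kb at Ctr 12, 36 and 72 h. The sums were 48.1 ± 3.35 in SE 6 h, 36.0 ± 11.6 in SE 12 h, 36.0 ± 4.43 in SE 24 h, 38.7 ± 4.02 in SE 36 h and 43.7 ± 2.11 in SE 72 h. The share of Grm5 was 50.8% ± 11.1, 59.0% ± 1.48 and 51.0% ± 1.54 in the 3 control groups and between 31.0% ± 8.05 at SE 12 h and 41.0% ± 4.60 at SE 24 h.

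Group III made up 21.8% to 27.6% of the family in the control means and 30.8% ± 4.95 at SE 6 h. It then made up 37.1% ± 2.78 at SE 12 h, 39.4% ± 2.62 at SE 24 h, 36.8% ± 8.30 at SE 36 h and 24.3% ± 1.37 at SE 72 h. Every library of SE 12 h and SE 24 h was above the highest control share of 32.0%. Group II made up 19.2% to 25.9% in the control means, 33.0% ± 3.32 at SE 6 h and 31.9% ± 7.0 at SE 12 h. It had its highest mean share at SE 72 h, 37.4% ± 5.78, and its lowest SE share at 24 h, 19.6% ± 4.96. At SE 72 h its share came to 22.6% ± 9.10 from Grm3 and 14.8% ± 12.8 from Grm2, and SE 72 h replicate 1 held the highest Grm2 share there, 29.6%. These shares restate the levels above and were not tested.

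**Figure D4:**
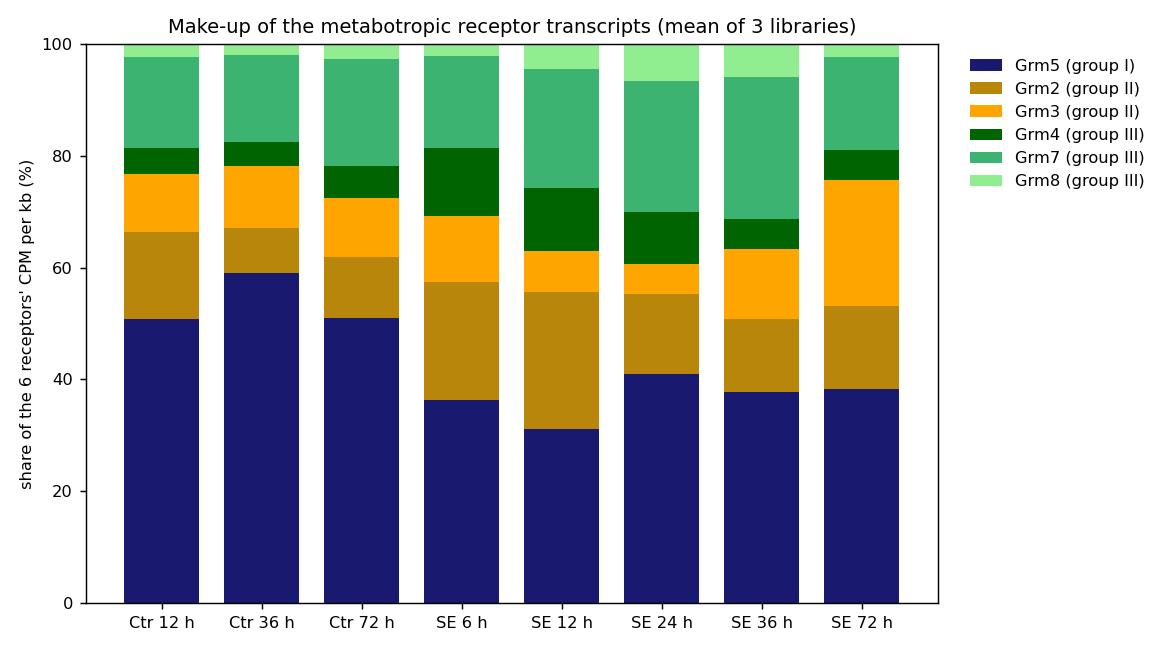
Mean share of each member in the summed CPM per kb of the 6 receptor genes, by group of 3 libraries, as stacked bars from 0 to 100%. Grm5 takes 50.8% to 59.0% in the control groups and 31.0% to 41.0% in the SE groups.

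The genes of the receptors' pathways were followed in 7 lists with 82 genes tested, chosen with earlier results of these data known. Of these 82 genes, 23 were called at 12 h, 32 at 36 h and 16 at 72 h, beside 25.2%, 21.6% and 19.4% of all genes tested. Without Ctr 72 h replicate 2, the library with ganglion markers, 19 were called at 72 h. Homer proteins and other scaffolds of group I receptors, 10 genes, had 2 up and 1 down at 12 h, 3 down at 36 h and 1 down at 72 h, with median log2FC of -0.06, -0.49 and -0.41 beside 0.01, 0.00 and 0.10 for all genes. Homer1, whose short activity-induced form uncouples group I receptors from the scaffold, rose at 12 h from 108 ± 23.2 to 409 ± 40.8 CPM (log2FC 1.92 ± 0.55, edgeR adjusted p = 0.00955). Its mean was 957 ± 578 CPM at SE 6 h, 762 ± 728 CPM at SE 24 h, 267 ± 121.5 CPM at SE 36 h and 119 ± 75.8 CPM at SE 72 h, and the counts are per gene and do not separate its forms. Homer2 went the other way and fell at 12, 36 and 72 h (-0.88, -1.71 and -1.01), from 120 ± 7.79 to 36.5 ± 2.18 CPM at 36 h. Tamalin, which links group I receptors to trafficking proteins, rose at 12 h (1.48 ± 0.40), and the scaffold gene Dlgap1 and the receptor-binding Ncdn fell at 36 h (-0.90 and -0.70).

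Among 15 genes of the Gq pathway 1 rose and 2 fell at 12 h, 1 rose and 6 fell at 36 h, and 2 rose and 3 fell at 72 h, with medians of -0.29, -0.41 and -0.20. Plcb3 and Plcb1 encode phospholipase C isoforms, and they moved in opposite directions. Plcb3 rose at all 3 times (1.34, 1.27 and 1.28, the last 1.90 without Ctr 72 h replicate 2), and Plcb1 fell at 12 and 36 h (-0.98 and -0.83) with -0.49 ± 0.16 at 72 h. The neuronal inositol trisphosphate receptor gene Itpr1 fell at 36 and 72 h (-1.27 and -0.85), whereas Itpr2 rose at 72 h (1.03 ± 0.20). The channel gene Trpc5 fell at 36 h (-1.51 ± 0.44) from a low level of 5.34 ± 0.88 CPM.

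The Gi/o pathway of groups II and III had 1 of 16 genes up and 4 down at 12 h, 1 up and 6 down at 36 h, and 1 up and 2 down at 72 h, with medians of -0.10, -0.53 and -0.31. Kcnj9 and Kcnj3 encode subunits of the G protein-gated potassium channels. Kcnj9 fell at all 3 times (-1.74, -1.48 and -0.73), from 145 ± 50.1 to 43.1 ± 9.42 CPM at 12 h, and Kcnj3 at 12 and 36 h (-1.07 and -1.01). The adenylyl cyclase genes Adcy1 and Adcy9 fell at 12 h (-0.96 and -0.94) and at 36 h (-0.93 and -1.29). Of the inhibitory alpha subunits, Gnai1 fell at 36 and 72 h (-0.85 and -0.99) and Gnai2, which is abundant in microglia, rose at 72 h (0.93 ± 0.13), a time at which all 6 microglial markers rose. The part of microglia in the Gnai2 result was not tested.

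Regulators of G protein signalling shorten the active time of G alpha subunits. Of 10 such genes 5 rose and none fell at 12 h, 5 rose and 2 fell at 36 h, and 1 rose and 1 fell at 72 h, with medians of 0.81, 0.64 and -0.01. Rgs4, an abundant regulator of Gq and Gi/o in neurons, rose from 182 ± 0.31 to 646 ± 54.4 CPM at 12 h (1.82 ± 0.43) and by 1.40 ± 0.42 at 36 h. Rgs2 (1.45 and 1.06) and Rgs7 (1.04 and 1.16) rose at the same times. Rgs20 rose at 12, 36 and 72 h (1.53, 1.20 and 1.23), but without Ctr 72 h replicate 2 its value at 72 h was 0.50 and was not called (edgeR adjusted p = 0.0686). Rgs16, which the thalamus marker list also holds, rose at 12 h (1.78 ± 0.37). Rgs14, known for its high level in CA2, fell at 36 h (-1.69 ± 0.37).

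Of the 7 kinase and arrestin genes 1 rose and 1 fell at 12 h, 1 fell at 36 h and 1 rose and 1 fell at 72 h, with medians of -0.18, -0.18 and -0.13. The receptor kinase gene Grk3 fell at all 3 times (-0.74, -1.16 and -1.04), and Grk5 rose at 12 h (0.98 ± 0.22). Grk4 was called at 72 h (1.38 ± 0.50, edgeR adjusted p = 0.0457) with means of 3.34 ± 2.96 CPM in Ctr 72 h and 4.56 ± 1.05 CPM in SE 72 h, and without Ctr 72 h replicate 2 its log2FC was -0.10 and was not called. Among 10 partners of group III receptors 1 rose and 2 fell at 12 h, 2 fell at 36 h and 1 fell at 72 h, with medians of -0.23, -0.17 and -0.57. Elfn1, a postsynaptic protein that binds Grm7 across the synapse, rose at 12 h from 38.4 ± 6.20 to 79.1 ± 16.2 CPM (1.04 ± 0.25), while its relative Elfn2 fell at 36 and 72 h (-0.95 and -0.74). The calmodulin gene Calm3 fell at 12 and 36 h (-0.74 and -1.08) and Calm2 at 12 h (-0.78 ± 0.16).

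The last list, 14 genes of glutamate and NAAG supply and removal, had 2 down at 12 h, 5 down at 36 h and 1 up and 1 down at 72 h, with medians of -0.38, -0.54 and -0.22. Folh1 encodes the enzyme that cleaves NAAG, the peptide agonist of Grm3. Its means were 10.3 ± 1.11 CPM at Ctr 12 h and 4.44 ± 2.30 CPM at SE 12 h, and 8.89 ± 1.95 at Ctr 72 h and 19.4 ± 5.53 at SE 72 h, so that it fell at 12 h (-1.25 ± 0.33, edgeR adjusted p = 0.0054) and rose at 72 h (1.16 ± 0.34, adjusted p = 0.014). At SE 24 h it stood at 1.32 ± 0.10 CPM. Glul, the glutamine synthetase of astrocytes, fell at 12 and 36 h (-1.17 and -0.90) and had a log2FC of 0.21 ± 0.17 at 72 h. The astrocyte transporter genes Slc1a2 and Slc1a3, which are also astrocyte markers here, fell at 36 h (-1.30 and -0.72), as did the cystine-glutamate exchanger gene Slc7a11 (-0.69). The vesicular transporter gene Slc17a8 fell at 72 h (-1.92 ± 0.55) to 1.30 ± 0.61 CPM, a call lost without Ctr 72 h replicate 2 (-1.75, edgeR adjusted p = 0.0522).

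**Figure D5:**
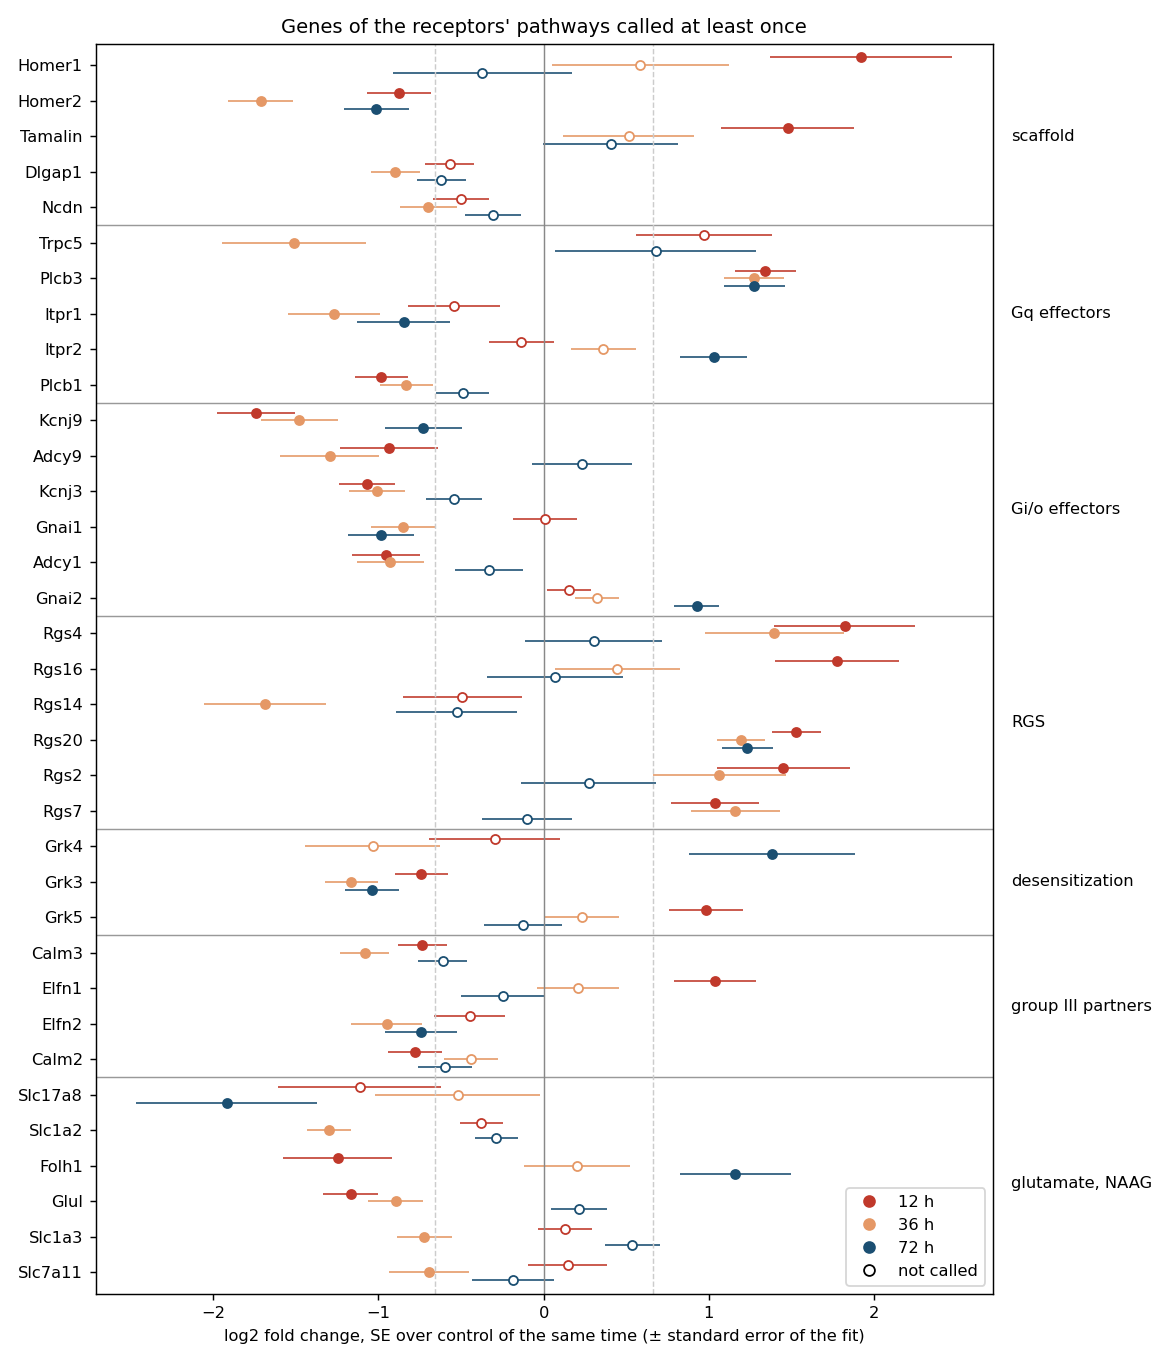
Log2FC of SE over control of the same time, with standard errors, for the named genes of the 7 lists at 12 h (red), 36 h (orange) and 72 h (blue); filled points were called and dashed lines mark -0.66 and 0.66. Rgs2, Rgs4 and Rgs7 lie right of 0 at 12 and 36 h, Homer1 is highest at 12 h, and Homer2, Kcnj9 and Grk3 are called to the left at all 3 times.

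The genes whose log2 CPM followed each member most closely over the 24 libraries were sought among 13750 genes. For Grm5 they were Rragb, a Rag GTPase gene of nutrient signalling (Pearson r 0.97), Gpd1l (0.95), the calcineurin subunit gene Ppp3r1 (0.95), the sodium leak channel gene Nalcn (0.95) and Ccdc148 (0.95). For Grm3 they were the motor protein gene Myo6 (0.91), Olfml1 (0.90), Phkg1 (0.90), Cspg5 (0.89) and the thyroid hormone transporter gene Slco1c1 (0.88). For Grm4 they were Gdpd5 (0.89), the cholecystokinin receptor gene Cckbr (0.87), Sowahb (0.86), Dvl1 (0.85) and Dip2b (0.83).

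The closest genes of the other members had lower values. For Grm2 they were the protein kinase A subunit gene Prkacb (0.80), Obsl1 (0.76), Gsg1l (0.76), Spint2 (0.76) and Wnt5a (0.75). For Grm8 they were the growth cone gene Gap43 (0.78), Rnf10 (0.76), Pcdh15 (0.76), Cdc42ep3 (0.76) and Cdh22 (0.75), and for Grm7 Epg5 (0.73), Xxylt1 (0.68), Arl6ip5 (0.66), Nwd2 (0.65) and Lama1 (0.65). After the group means were removed the r of the first gene of these 3 lists was 0.93, 0.65 and 0.81, against 0.75 for Rragb, 0.86 for Myo6 and 0.81 for Gdpd5. Between members the highest r over the 24 libraries was 0.55, for Grm5 with Grm3, and after the group means were removed it was 0.68, for Grm4 with Grm8, followed by 0.63 for Grm5 with Grm3. All these values share the same libraries and scaling and are descriptions.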

How the data were processed

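Poly(A) RNA of microdissected CA1 was sequenced in 24 libraries (TruSeq, paired-end, not stranded). The authors trimmed reads with Trim Galore 0.6.6, aligned with STAR 2.7.8a to GRCm39, annotated with GENCODE M26, counted without strand with HTSeq 0.13.5 and deposited whole-number counts per gene. Positions, exon lengths and overlaps were taken from GENCODE M39 on GRCm39; 18552 genes matched a symbol and 95 did not. Groups came from the labels. The members and all lists were chosen with earlier results of these data known.

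In R 4.3.3, counts of genes kept by filterByExpr were scaled by TMM and fitted over all 24 libraries with edgeR 4.0.16 (8 group terms, 1 factor of unwanted variation from deviance residuals, RUVr). This factor was 0.80 in Ctr 72 h replicate 2, -0.38 and -0.37 in Ctr 72 h replicates 1 and 3, and between -0.10 and 0.14 elsewhere. It thus mainly separates the Ctr 72 h libraries from one another. p-values were adjusted by the Benjamini-Hochberg method over 18153 genes. Marker and correlation values used log2 CPM with a prior count of 2. The fit was also run on simulated counts with known changes set in SE 12 h. These counts held no outlying library and no other tissue, so they do not test calls that depend on such libraries. Named pathway genes were those called at 12, 36 or 72 h, up to 6 per list by size of log2FC (a gene that this rule selects is not reported here); likeness was sought among genes whose mean log2 CPM reached 1. Alternatives were no RUVr factor, DESeq2 1.42.0, limma-voom 3.58.1, other scalings and filters, other terms, only the groups compared and omission of single libraries. Same-numbered replicates deviated together in 1 of 28 pairs of groups.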

Additional observations from a re-analysis of the deposited data

Results flagged for a closer look

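2 members had an SE effect that differed between time points by a test of the difference itself. The SE effect on Grm3 was 2.10 higher on the log2 scale at 72 h than at 12 h, from -1.18 at 12 h to 0.92 at 72 h (edgeR adjusted p = 0.00156). The SE effect on Grm5 was 0.71 higher at 72 h than at 12 h, from -1.32 to -0.61 (edgeR adjusted p = 0.019). In this comparison 18.6% of all genes tested were called. The Grm3 difference was called in each omission of 1 library (1.77 to 2.42), whereas the Grm5 difference lost its call without Ctr 12 h replicate 1, SE 12 h replicate 3, Ctr 72 h replicate 2 or SE 72 h replicate 2.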

How the results depend on the processing

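Over 15 comparisons, the 6 members were refitted in 1800 combinations of an effect and another setting. No called effect reversed its sign, 47 lost the call, 25 gained it, and in 124 the sign turned for an effect that was called in neither fit. Called in all 12 other fits and in each omission of 1 library were Grm5 at 12, 24 and 36 h, Grm3 at 12 and 24 h, Grm4 at 6 h and the difference of the Grm3 effect between 72 and 12 h. Grm5 at 6 h was called in all 12 other fits and lost its call in 1 omission. Without the RUVr factor the members called were 1 at 36 h and 0 at 72 h, from 24 to 36 h and from 36 to 72 h. Without it and without Ctr 72 h replicate 2, added after seeing the data, they were 1 at 36 h and 1 for the difference between 72 and 12 h. With limma-voom they were 1 at 36 h, 0 at 72 h, 0 from 24 to 36 h and 2 from 36 to 72 h. With DESeq2 they were 2 from 36 to 72 h and 1 for the difference between 72 and 36 h. With only the groups compared they were 0 at 72 h and in the steps to 12, 36 and 72 h, 1 for the difference between 72 and 12 h, 2 at 24 h (without Grm8) and 3 at 6 h (with Grm2), with fewer libraries in each fit. With the dentate granule score as a term, also added later, they were 0 in the steps to 12 and 36 h. With a factor for the label number ranges, the difference between 72 and 36 h had 1, Grm8. At 72 h the called member was then Grm8 (-1.64, adjusted p = 0.0466) in place of Grm3 (0.59, adjusted p = 0.303), the step to 72 h had Grm8 in place of Grm3, the difference between 72 and 12 h had 3 members with Grm8 (-2.34), and 24 h had 2, without Grm8. All of Ctr 72 h lies in the highest of these ranges (167 to 169) and none of SE 72 h does (104, 119 and 120). SE 24 h (97 to 99) lies in a range without controls. In these comparisons the factor and SE are therefore largely confounded. Omission of single libraries gave 2 to 4 called members for 12 h, 1 to 2 for 36 h, 0 to 1 for 72 h, 1 to 3 for 6 h, 2 to 3 for 24 h, 0 to 1 in the steps to 12 and 36 h, 0 to 2 in the step to 72 h, 1 to 4 for the difference between 72 and 12 h and 0 to 2 for that between 72 and 36 h. The cause of these changes was not tested. Of the 82 pathway genes, between 23 and 24 were called for 12 h, between 28 and 33 for 36 h and between 14 and 19 for 72 h over the settings run. Deviations correlated by 0.0071 on average between same-numbered libraries of 28 pairs of groups and by -0.0027 between others. In 1 of these pairs, SE 6 h and SE 36 h, which no comparison sets against each other, all same-numbered correlations were over 0.1 (0.14 to 0.39), and the labels do not say that the numbers mark a pairing. With the replicate block 2 members were called at 12 h, 2 at 36 h and 1 at 72 h, as without it. With 3 libraries per group, an uncalled change may be one that the spread hides, above all for Grm2.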
